A study of Rattus norvegicus with 15 samples.

Results

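Immune checkpoint and costimulation genes encode the receptors and ligands that set how strongly a T cell responds once its antigen receptor is engaged. The 10 genes examined were FOXP3, the lineage factor of regulatory T cells, the receptors ICOS, CTLA4, PDCD1, TIGIT and LAG3, and the ligands CD274 (PD-L1), PDCD1LG2 (PD-L2), CD80 and CD86. They were taken by symbol from a table of read counts for 17463 genes, where 9 of the 10 have a row and TIGIT was not analysed here. PDCD1 had 0 counts in all 15 libraries, CTLA4 and PDCD1LG2 had too few counts to pass the expression filter, and the other 6 genes passed it.

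CD80 and CD86 on antigen-presenting cells deliver a costimulatory signal through CD28, and CTLA4 competes for the same ligands and restrains it. ICOS is a relative of CD28 that appears after activation, LAG3 restrains T cells after binding class II molecules, and PDCD1 does so after binding CD274 or PDCD1LG2. Among T cells, FOXP3 and high CTLA4 mark regulatory T cells. CD274 can also be made by epithelial tumour cells and by macrophages under interferon gamma.

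The samples were pieces of mammary tumours that the carcinogen N-nitroso N-methylurea (NMU) had induced in Fischer rats, profiled by bulk RNA sequencing. Midkine is a secreted growth factor that binds heparin, and its effect on mammary tumour formation was the question of the study. The midkine group (9 libraries) came from rats given recombinant rat midkine at 300 ug/kg in 3 injections a week over 2 weeks ahead of an NMU dose of 50 mg/kg, after which midkine and NMU were given once more in the same way. The vehicle group (6 libraries) bears the label vehicle, its tumours too were induced with NMU, and the labels name neither the vehicle nor the age of the animals. Titles share a number for midkine 3-1 and 3-2, for midkine 4-1, 4-2 and 4-3, and for vehicle 2-1 and 2-2. No label says whether such tumours grew in 1 animal, so p-values measure the spread between these libraries.

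Libraries held 4925504 to 8486523 counted reads, and all 10 epithelial markers looked at, EPCAM and KRT8 among them, passed the expression filter. Reads of the muscle myosin gene MYH4 were present in 10 libraries, the 6 vehicle libraries with midkine 1, 2, 5 and 6, while the other 5 midkine libraries had at most 1. Midkine 1 stood apart from all others, with 424500 of the 431382 MYH4 reads against 461 to 993 in the other 9, and a mean log2 CPM of 8 skeletal muscle genes of 14.5. Levels are given in CPM, counts divided by the effective size of each library, which is its total times a trimmed-mean scaling factor. That factor was 0.56 in midkine 1 and 0.89 to 1.13 in the other libraries. CPM can be compared between libraries for 1 gene but not between genes of different length. In bulk tissue a lower level can come from fewer cells of a type or from less RNA per cell, and these cannot be told apart.

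Midkine 3-2 and midkine 4-2 held a large share of the reads of the checkpoint genes. Together they held 78.4% of all reads of CTLA4, 73.6% of ICOS, 71.8% of PDCD1LG2, 53.9% of CD274, 50.0% of CD86, 47.7% of LAG3, 45% of CD80 and 31.4% of FOXP3. They were not the 2 highest libraries for every gene. For LAG3 midkine 3-1 (15.9 CPM) was above midkine 3-2 (12.7 CPM). For CD274 vehicle 2-1 (8.83 CPM) was above midkine 4-2 (7.70 CPM). Midkine 3-2 and 4-2 were the highest in the T cell level, the mean log2 CPM of 14 T cell genes such as CD3E, LCK and CD4. It was 5.38 in midkine 3-2 and 6.98 in midkine 4-2, against 1.42 to 4.17 in the other midkine libraries and 1.21 to 2.89 in the vehicle libraries. Midkine 4-2 also had the lowest mean log2 CPM of the 10 epithelial markers, 6.99, with midkine 1 and midkine 5 close to it at 7.12 and 7.22. That mean was 8.28 in midkine 3-2 and 8.09 to 8.47 in vehicle libraries. The means of midkine 4-2 for macrophage, dendritic cell and B cell genes (given below) were the highest of all libraries, at 6.75, 5.42 and 6.93. For the checkpoint genes with reads, log2 fold changes, slopes on the T cell level (defined below) and correlations are therefore also given without midkine 3-2 and 4-2. Differences at equal T cell level, tests of slopes against 1 and slopes of other genes are given only with them.

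Promoter sequences of RefSeq (assembly GRCr8) were matched by symbol for 9 of the 10 genes. Those of FOXP3, CTLA4, ICOS and CD274 are shown because CTLA4 and ICOS lie side by side after CD28 on chromosome 9 and had their highest levels in the same library, because FOXP3 marks the cells best known for CTLA4, and because CD274 is the ligand whose direction between the groups rested on 1 library. Each is the 250 bases before the annotated start, 5′ to 3′ on the strand of the gene, with the NFAT core GGAAA, or TTTCC where it lies on the other strand, in capitals. NFAT is a transcription factor that T cell receptor signalling activates.
FOXP3, chrX:17595701-17595950, minus strand: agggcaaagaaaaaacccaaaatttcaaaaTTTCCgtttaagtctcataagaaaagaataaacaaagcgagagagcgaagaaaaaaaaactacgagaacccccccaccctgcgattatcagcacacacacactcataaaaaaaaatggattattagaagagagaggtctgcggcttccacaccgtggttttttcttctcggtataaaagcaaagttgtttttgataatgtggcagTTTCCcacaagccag
CTLA4, chr9:69813171-69813420, plus strand: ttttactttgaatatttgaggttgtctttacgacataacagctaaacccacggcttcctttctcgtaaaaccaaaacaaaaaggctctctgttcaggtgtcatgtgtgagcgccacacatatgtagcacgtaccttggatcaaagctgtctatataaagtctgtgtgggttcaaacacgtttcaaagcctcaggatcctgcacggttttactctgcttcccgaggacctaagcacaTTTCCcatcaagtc
ICOS, chr9:69877549-69877798, plus strand: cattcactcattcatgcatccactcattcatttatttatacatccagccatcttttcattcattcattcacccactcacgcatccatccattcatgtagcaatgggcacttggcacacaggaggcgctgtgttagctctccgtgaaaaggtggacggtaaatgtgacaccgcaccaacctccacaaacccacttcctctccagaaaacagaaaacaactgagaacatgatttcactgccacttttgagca
CD274, chr1:236529982-236530231, plus strand: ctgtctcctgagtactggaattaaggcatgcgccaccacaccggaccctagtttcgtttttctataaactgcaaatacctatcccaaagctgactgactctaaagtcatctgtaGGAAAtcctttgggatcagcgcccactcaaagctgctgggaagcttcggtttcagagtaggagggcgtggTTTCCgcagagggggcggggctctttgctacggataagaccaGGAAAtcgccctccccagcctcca
The core occurs 2 times in the FOXP3 window, 1 time in that of CTLA4 and 3 times in that of CD274, and ICOS has no match in its window. These 5 letters were found in 56.9% of all 33469 promoter windows of this length, so a match describes the letters only. Both strands were counted.

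FOXP3 was the best counted of the genes, with at least 117 reads in every library. Vehicle 3 had 138 reads of FOXP3 and 14 of CD3E, and midkine 1 had 131 and 14, with 0 of CTLA4. CD3E had more reads than FOXP3 only in midkine 3-2 (820 against 522) and midkine 4-2 (1856 against 506). Which cells gave the FOXP3 reads was not tested. The FOXP3 level ran from 19.2 through a median of 36.7 to 63.7 CPM in midkine tumours and from 16.7 through 19.6 to 26.2 CPM in vehicle tumours. In 6 of 9 midkine libraries it lay above the highest vehicle library, while midkine 2, 6 and 4-3 lay inside the vehicle range. The means were 37.4 ± 15.8 CPM in midkine tumours (SD, n = 9) and 20.6 ± 3.45 CPM in vehicle tumours (SD, n = 6), a log2 fold change of 0.86 (SE 0.26, adjusted p = 0.399 by edgeR with Benjamini-Hochberg adjustment). The 6 include midkine 1 and midkine 5, at 31.2 and 36.7 CPM, whose T cell levels (defined above) of 1.55 and 2.13 were within the vehicle range. In midkine 1, the library rich in muscle reads, the place of FOXP3 rests on the scaling. By its total alone it had 131 FOXP3 reads at 17.2 CPM, below all vehicle libraries (18.0 to 29.0 CPM by total), while midkine 5 had 32.6 CPM. Then 5 of 9 midkine libraries lay above the vehicle range, with 0.73 as the log2 fold change (SE 0.29) and 0.509 as the adjusted p by edgeR. That scaling moved the median over all genes to -0.10, against 0.04, a shift of -0.14. In RefSeq the neighbour of FOXP3 is CCDC22, a gene chosen after its values were seen. It had 36.3 to 52.9 CPM in midkine and 36.2 to 41.0 CPM in vehicle tumours. The same 6 midkine libraries as for FOXP3 lay above its vehicle range, and midkine 2, 6 and 4-3 lay inside it. Strand was a setting not given in the sources used here, and whether reads of such neighbours are shared was not tested.

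ICOS, the inducible costimulator, spanned the widest range among the genes that passed the filter. It ran from 0.712 through a median of 4.39 to 74.5 CPM in midkine tumours and from 0.870 through 2.08 to 3.17 CPM in vehicle tumours. Midkine 3-2 had 610 of its 1242 reads and midkine 4-2 had 304. Midkine 3-1, 4-1 and 6 were also above every vehicle library, and midkine 5, at 4 reads, was below all of them. Its log2 fold change was 3.00 (SE 0.94, adjusted p = 0.399 by edgeR).

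CTLA4, the inhibitory counterpart of CD28, was sparse, with 194 reads in all and at least 10 reads only in midkine 3-1, 3-2 and 4-2. Midkine 3-2 alone held 120 of these reads, or 14.7 CPM, against 3.85 CPM in midkine 4-2. Midkine libraries ran from 0 through a median of 0.732 to 14.7 CPM and vehicle libraries from 0 through 0.121 to 0.655 CPM. In 6 of 9 midkine libraries the level was above the highest vehicle library, which was vehicle 6 with 5 reads. By library totals alone this held in 5 of 9. Among the 6, midkine 4-1, 5 and 6 had only 5, 4 and 6 reads. Their levels of 0.776, 0.712 and 0.732 CPM were barely above the 0.655 CPM of vehicle 6. The CTLA4 log2 fold change was 3.78 (SE 1.21, adjusted p = 0.370 by edgeR). It comes from a fit of 15084 genes with no filter, where counts this low give a wide error.

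Vehicle 6 was also the vehicle library with the most reads of CD28, the receptor that shares its ligands with CTLA4. CD28 stood at 30.5 CPM there, against 0.563 to 5.84 CPM in the other vehicle libraries. Midkine 3-2 and 4-2 had 40.7 and 24.1 CPM of CD28, and the other midkine libraries at most 7.62 CPM. ICOS, the third gene of this cluster on chromosome 9, had 2.88 CPM in vehicle 6, within the range of the other vehicle libraries.

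LAG3, the receptor for class II molecules, had its highest level in midkine 4-2 and not in midkine 3-2. It ran from 1.43 through a median of 5.12 to 31.8 CPM in midkine tumours and from 1.13 through 3.69 to 6.34 CPM in vehicle tumours. Midkine 3-1, 3-2, 4-1 and 4-2 lay above the vehicle range and the other 5 lay inside it. By library totals alone midkine 1, at 0.788 CPM, lay below the vehicle range (1.15 to 6.50 CPM). The log2 fold change of LAG3 between the groups was 1.40 (SE 0.68, adjusted p = 0.512 by edgeR).

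PDCD1, the receptor of both PD-1 ligands, was counted 0 times among 105385729 reads. A count of 0 allows up to 3 counts in a library, which is 0.714 CPM in midkine 1 and 0.351 CPM in vehicle 2-2, the highest and lowest such limits. In the table as a whole 13.6% of genes had 0 counts in all libraries. Among genes with a row, however, this held for 0 of 14 T cell genes. It also held for 0 of 30 other checkpoint and costimulation genes and 0 of 14 factors of T cell activation and exhaustion. Whether the annotation used could collect PDCD1 reads was not tested, and the limits above apply only if it could. No comparison was made for PDCD1.

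CD274, the PD-1 ligand known from tumour cells as well as immune cells, was high in a single library. It stood at 36.4 CPM in midkine 3-2, where it had 298 reads, at 7.70 CPM in midkine 4-2 and at 1.19 to 4.35 CPM in the other 7 midkine libraries. The median was 2.62 CPM in midkine tumours and 3.86 CPM in vehicle tumours, which ran from 1.97 to 8.83 CPM. One midkine library was above and 3 were below all vehicle libraries. Its log2 fold change was 0.63 (SE 0.73, adjusted p = 0.831 by edgeR), and without midkine 3-2 it was -0.50, so its direction rests on that library.

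PDCD1LG2, the second PD-1 ligand, was sparse, and midkine 4-2 held 68 of its 124 reads. It ran from 0 through a median of 0.820 to 8.18 CPM in midkine tumours and from 0 through 0.303 to 0.396 CPM in vehicle tumours. At least 10 reads were present only in midkine 3-2 and 4-2. Its log2 fold change was 2.61 (SE 1.11, adjusted p = 0.414 by edgeR with no filter). It lies next to CD274 on chromosome 1 in RefSeq, but the neighbours peaked in different libraries: midkine 3-2 had 4.73 times the CD274 level of midkine 4-2 and 0.314 times its PDCD1LG2 level.

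CD80 and CD86, the ligands shared by CD28 and CTLA4, also differed from each other. CD80 ran from 0.178 through a median of 2.46 to 12.8 CPM in midkine tumours and from 0.584 through 1.91 to 2.86 CPM in vehicle tumours. Midkine 3-2 was far above the vehicle range, midkine 4-2 and 6 were just above it at 3.49 and 2.93 CPM, and midkine 5 had 1 read. By library totals alone midkine 6, at 3.06 CPM, lay inside the vehicle range (0.648 to 3.23 CPM) and midkine 1, at 0.394 CPM, lay below it. CD86 ran from 1.19 through a median of 3.29 to 17.8 CPM in midkine tumours and from 1.74 through 3.02 to 4.72 CPM in vehicle tumours. Midkine 3-2 and 4-2 had nearly the same CD86 level, 17.6 and 17.8 CPM, and midkine 3-1 and 4-1 also lay above the vehicle range. The log2 fold changes were 0.79 (SE 0.64, adjusted p = 0.738 by edgeR) for CD80 and 1.06 (SE 0.59, adjusted p = 0.580 by edgeR) for CD86.

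**Figure D1:**
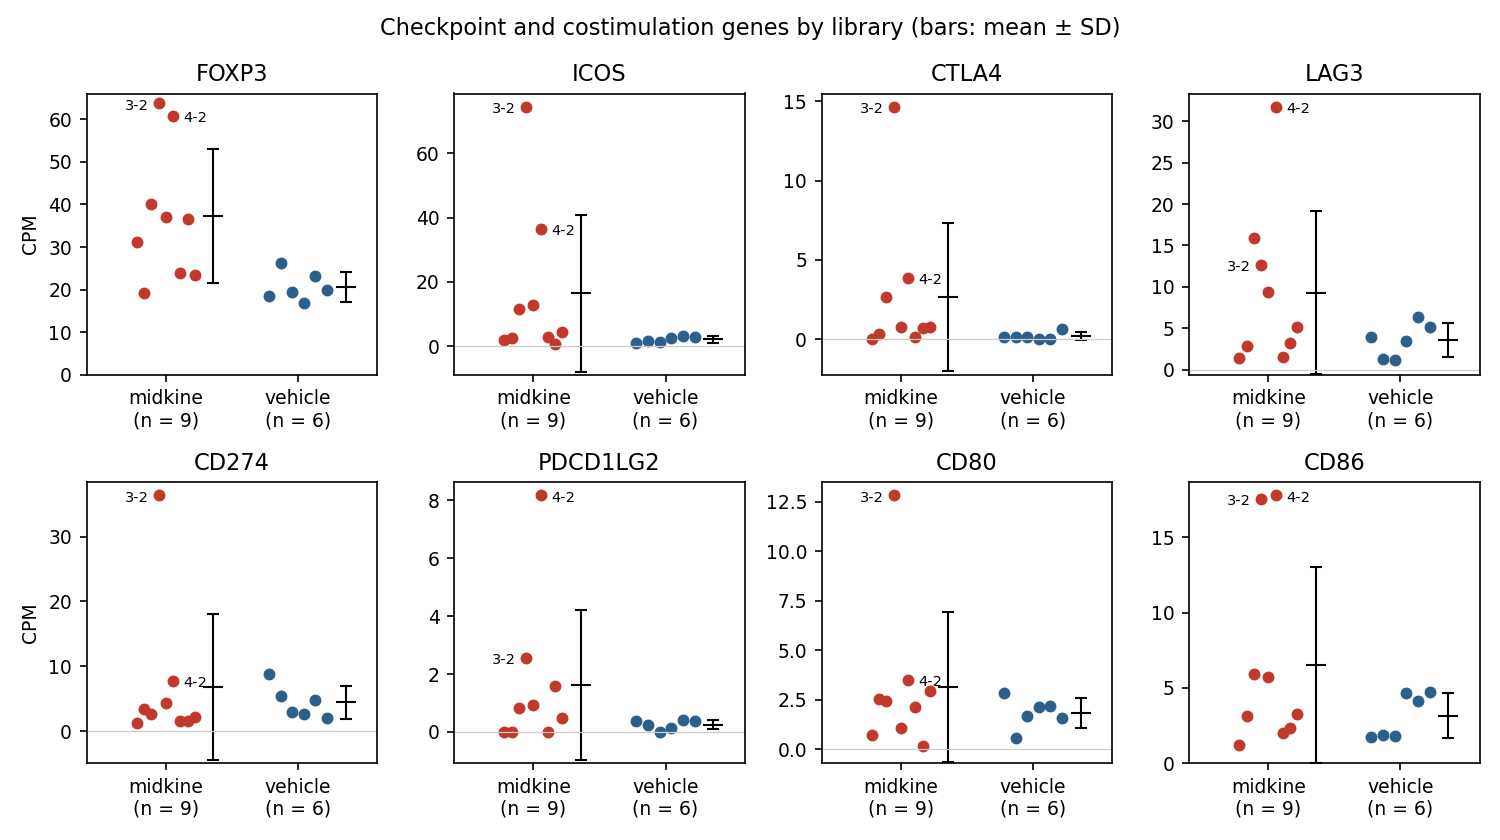
Level in CPM of the 8 genes with reads, 1 point per library, midkine (red, 9 libraries) left of vehicle (blue, 6 libraries), with the mean ± SD as bars. Midkine 3-2 and midkine 4-2 are labelled: CD274, CTLA4 and CD80 are highest in midkine 3-2 and LAG3 and PDCD1LG2 in midkine 4-2.

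No checkpoint or costimulation gene passed the threshold between midkine and vehicle tumours, and neither did any other gene. With edgeR, 0 of 11665 genes were called at an adjusted p under 0.05 (0%), and 0 of 15084 (0%) with no filter. At an unadjusted p under 0.05 lay 929 genes that were higher in midkine tumours (7.96%) and 249 that were lower (2.13%). FOXP3 and ICOS were 2 of the 929, and the other 4 genes that passed the filter were not. All 6 had a log2 fold change above 0, as did 55.7% of genes tested, and their median was 0.96 against 0.04 over all genes. The groups overlapped for every one of the checkpoint genes, and 0.0171% of genes tested had groups that did not overlap.

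The other tool gave 1 call among these genes. DESeq2 put ICOS at a log2 fold change of 3.04 (adjusted p = 0.0370), against 0.632% of genes called higher and 0.0441% called lower in midkine tumours. With DESeq2, FOXP3 had an adjusted p of 0.0869 and CTLA4 of 0.0611. Without midkine 3-2 the edgeR log2 fold change of ICOS was 2.16 and that of CD80 was 0.10, and without midkine 4-2 that of PDCD1LG2 was 1.62 and that of LAG3 was 0.89. With both libraries left out, ICOS stood at 1.37 (SE 0.61), CTLA4 at 1.97 (SE 0.91), PDCD1LG2 at 1.06 (SE 0.93), LAG3 at 0.69 (SE 0.60) and FOXP3 at 0.56 (SE 0.19). CD86 was then at 0.11 (SE 0.41), and CD80 at -0.06 (SE 0.49) and CD274 at -0.84 (SE 0.39) were below 0. None of these 8 passed, with adjusted p-values from 0.61 to 0.982 by edgeR.

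Within the 10 libraries that have MYH4 reads, 4 of them midkine, the differences were smaller for most of the genes. FOXP3 had a log2 fold change of 0.43 (SE 0.21, adjusted p = 0.518 by edgeR), ICOS of 0.23, LAG3 of -0.12, CD80 of -0.15, CD86 of -0.31 and CD274 of -1.04. CTLA4 stood at 1.28 and PDCD1LG2 at 1.03 with few reads. Midkine 1 is among the 4, and without it FOXP3 stood at 0.37, ICOS at 0.31, CD86 at -0.10 and CD274 at -0.86, while LAG3 (0.10) and CD80 (0.07) were above 0, with 0 genes called. With midkine 1 kept, 2 of the 6 genes that passed the filter were higher in midkine tumours there, against 53.2% of all genes tested, and 0 of 11611 genes were called (0%). All 5 libraries without MYH4 reads are midkine, so this divide and the treatment cannot be told apart for them.

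**Figure D2:**
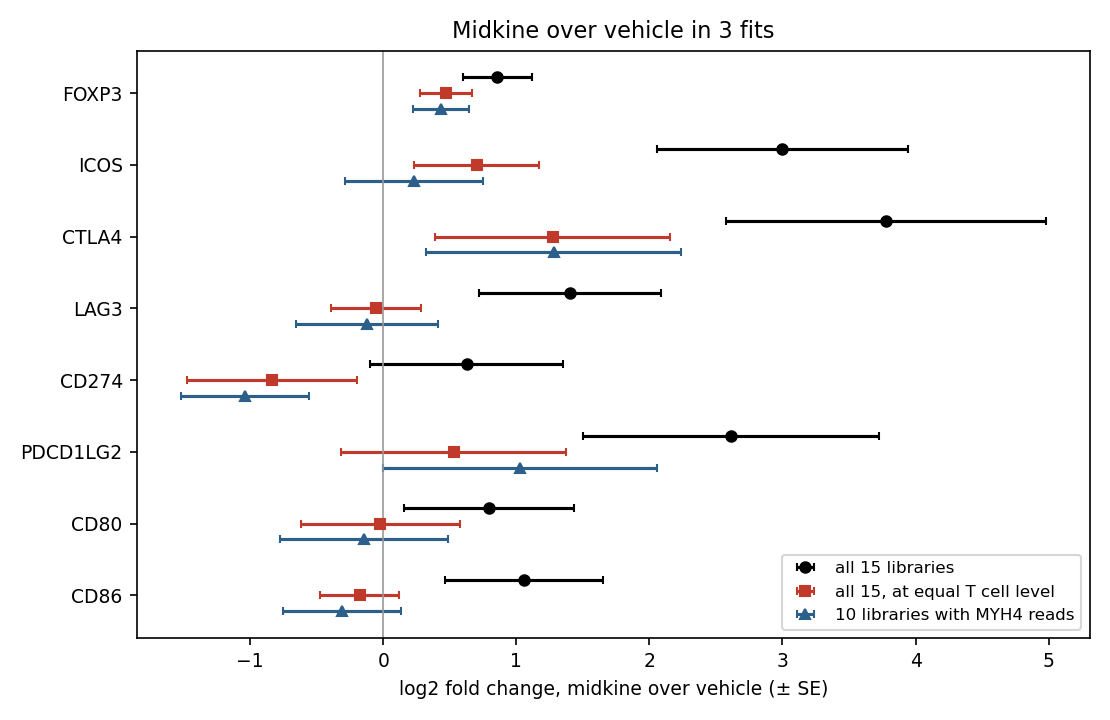
Log2 fold change of midkine over vehicle (± SE) for 8 genes in 3 edgeR fits: all 15 libraries (black circles), all 15 at equal T cell level (red squares) and the 10 libraries with MYH4 reads (blue triangles). ICOS stands at 3.00, 0.70 and 0.23 in the 3 fits, and CD274 lies below 0 in the last 2.

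Whether the genes follow T cells was asked by adding the T cell level to the model beside the treatment group. The slope is the change in log2 level of a gene for each log2 step in the level of T cell genes, so a gene that moves one for one with them has a slope near 1. None of the checkpoint genes is among the 14 genes of that level. Of the 6 that passed the filter 5 rose with it, FOXP3, ICOS, CD274, LAG3 and CD86, against 5.78% of 11651 genes tested that rose and 1.40% that fell. CTLA4 and PDCD1LG2 rose as well in the fit with no filter, where 5.45% of genes did, and CD80 did not pass. Markers of other leukocytes rose with the same T cell level: both B cell genes that passed the filter, with slopes of 1.09 for CD22 and 1.15 for FCRLA, 7 of 14 macrophage genes and 3 of 7 dendritic cell genes. Their part in the slopes was not tested.

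ICOS had a slope of 1.06 (SE 0.14, adjusted p = 1.96e-04 by edgeR), CTLA4 of 1.19 (SE 0.25, adjusted p = 0.00943), PDCD1LG2 of 0.91 (SE 0.22, adjusted p = 0.0190) and LAG3 of 0.80 (SE 0.11, adjusted p = 1.71e-04). A slope of 1 was not distinguishable for these 4: their differences from 1 were 0.07, 0.21, -0.06 and -0.20, none past the threshold. CD274 had a slope of 0.67 (SE 0.19, adjusted p = 0.0471 by edgeR) with a difference from 1 that did not pass either (-0.32, 95% interval -0.71 to 0.06).

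FOXP3 rose less than T cell genes did. Its slope was 0.24 (SE 0.06, adjusted p = 0.0227 by edgeR), and it was below 1 with an adjusted p of 2.06e-08. CD86 at 0.67 (SE 0.09, adjusted p = 1.60e-04) and CD80 at 0.46 (SE 0.18, adjusted p = 0.132) were below 1 as well, with adjusted p-values of 0.00458 and 0.0159. A slope below 1 was found for 97.8% of genes tested and one above 1 for 0.0429%. Set against the T cell level, the log2 level of FOXP3 was lowest in midkine 4-2, at -1.05, and highest in midkine 1, at 3.42. It averaged 1.73 ± 1.45 in midkine tumours (SD, n = 9) and 2.20 ± 0.67 in vehicle tumours (SD, n = 6).

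**Figure D3:**
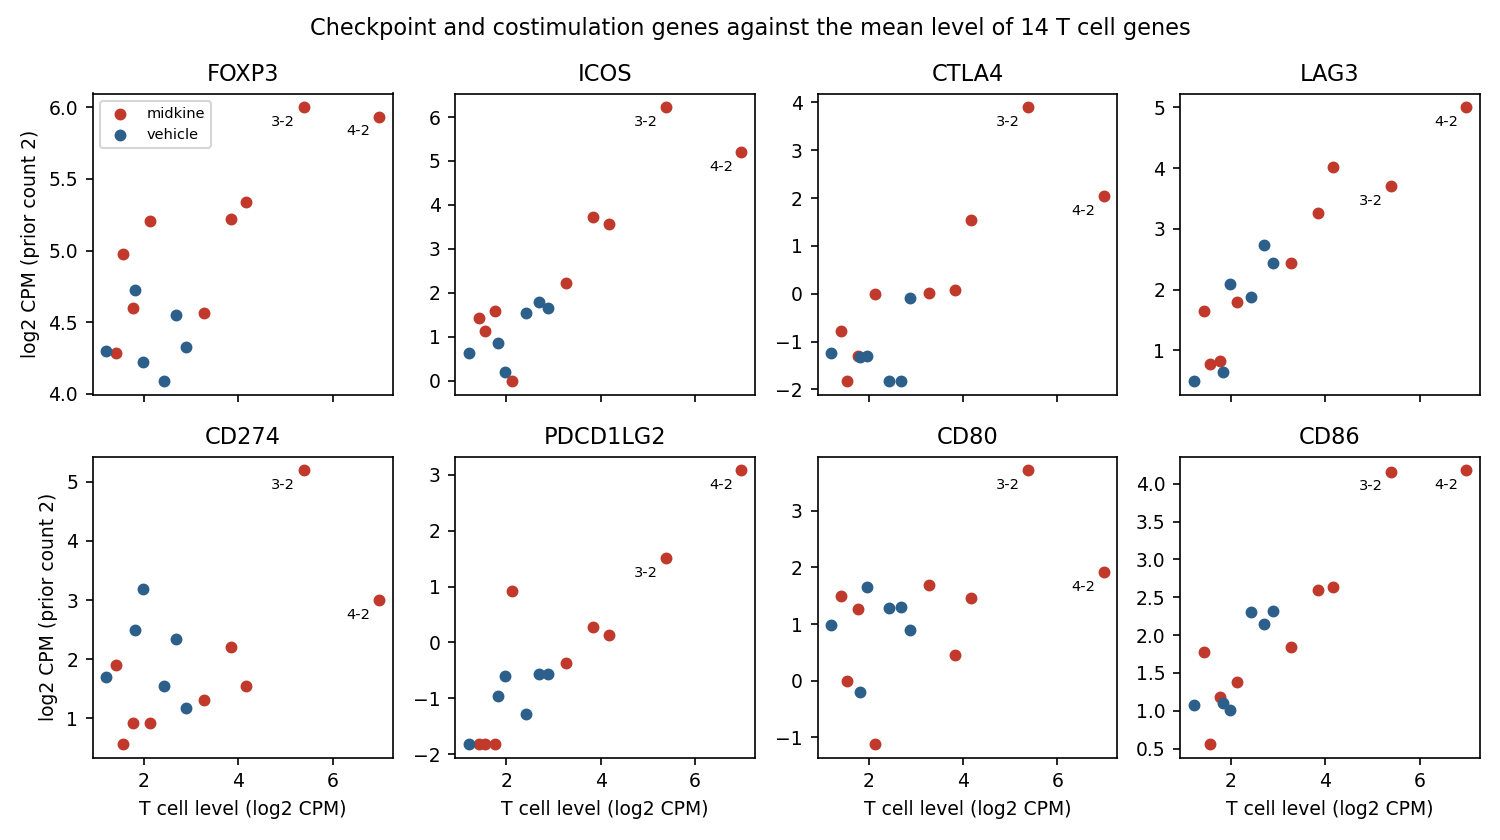
Log2 CPM (prior count 2) of 8 genes against the T cell level, the mean log2 CPM of 14 T cell genes, in 9 midkine (red) and 6 vehicle (blue) libraries. LAG3 and CD86 have an r of 0.928 and 0.925 with it, while CD274 and CD80 are high in midkine 3-2 and have an r of 0.0518 and 0.199 in the 13 libraries other than midkine 3-2 and 4-2.

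At equal T cell level the differences between midkine and vehicle tumours were smaller in size for 7 of the 8 genes, CD274 being the exception, and 0 of 11651 genes were called (0%). FOXP3 stood at 0.47 (SE 0.20, adjusted p = 0.614 by edgeR), ICOS at 0.70 (SE 0.47), LAG3 at -0.06 (SE 0.34), CD80 at -0.02 (SE 0.60), CD86 at -0.18 (SE 0.30) and CD274 at -0.84 (SE 0.64). CTLA4 and PDCD1LG2, with no filter, stood at 1.27 (SE 0.88) and 0.53 (SE 0.84). The 95% interval for FOXP3 was 0.09 to 0.86 and that for LAG3 was -0.72 to 0.61. Among all genes 881 had an unadjusted p under 0.05 in this fit.

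How much of the relation rests on the highest libraries was looked at by leaving out midkine 3-2 and 4-2 together, a setting chosen after the data were seen. ICOS kept a slope of 0.99 (SE 0.19, adjusted p = 0.0305 by edgeR) and LAG3 one of 1.09 (SE 0.17, adjusted p = 0.00774), where 0.712% of genes rose. CD86 had 0.64 (SE 0.16, adjusted p = 0.118), CTLA4 1.14 (SE 0.39, adjusted p = 0.355) and PDCD1LG2 0.88 (SE 0.54, adjusted p = 0.611), values near those of all libraries without passing. FOXP3 stood at 0.16 (SE 0.10, adjusted p = 0.623), CD80 at 0.16 and CD274 at 0.14 (SE 0.23, adjusted p = 0.868). With 1 library left out at a time, the slope of CD274 passed in 4 of 15 cases, those without midkine 2, midkine 4-2, vehicle 2-1 or vehicle 6, and was 0.30 without midkine 3-2. FOXP3 did not pass without midkine 2, 3-2 or 4-2 (slopes of 0.21, 0.21 and 0.26), CTLA4 without midkine 3-2 (0.81) and PDCD1LG2 without midkine 4-2 (0.88). ICOS, LAG3 and CD86 passed in all 15 cases.

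Libraries that share a title number may come from 1 animal, and their counts were also summed. In these 11 sums ICOS (slope 1.07, adjusted p = 0.0130 by edgeR), LAG3 (0.73, adjusted p = 0.00665) and CD86 (0.61, adjusted p = 0.0345) rose with the T cell level, as did 1.72% of genes. FOXP3 (0.17, adjusted p = 0.351), CTLA4 (1.13, adjusted p = 0.159), CD274 (0.58, adjusted p = 0.292), PDCD1LG2 (0.78, adjusted p = 0.282) and CD80 (0.45, adjusted p = 0.378) did not pass there. In the 10 libraries with MYH4 reads, where the T cell level spans 1.21 to 3.27, no gene of 11598 was called (0%). Slopes there were 1.00 (SE 0.30) for LAG3, 0.71 (SE 0.32) for ICOS and 0.62 (SE 0.29) for CD86, against -0.02 (SE 0.18) for FOXP3 and -0.22 (SE 0.38) for CD274.

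Correlations over libraries were highest for LAG3. Over 15 libraries, some of which may share an animal, log2 CPM of LAG3 had a Pearson r of 0.928 and a Spearman rho of 0.943 with the T cell level (both adjusted p = 2.13e-04 by permutation, over 64 tests). Without midkine 3-2 and 4-2, the farthest from the median, its r was 0.916. Within vehicle tumours it was 0.883 (exact permutation, n = 6, adjusted p = 0.0395) and within midkine tumours 0.946 (exact permutation, n = 9, adjusted p = 0.00106).

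CD86 had an r of 0.925 and a rho of 0.882 over 15 libraries, and ICOS of 0.903 and 0.821. Without midkine 3-2 and 4-2 their r was 0.82 and 0.83. PDCD1LG2 had an r of 0.901 and a rho of 0.890, and CTLA4 of 0.837 and 0.692, with an r of 0.70 and 0.725 without those libraries. FOXP3 had an r of 0.797 (adjusted p = 0.00352 by permutation) and a rho of 0.60, and its r was 0.489 without the 2 libraries. Within midkine tumours its r was 0.842 and its rho 0.867 (exact permutation, n = 9, both adjusted p = 0.0132), against an r of -0.0492 within vehicle tumours (exact permutation, n = 6, adjusted p = 0.94). CD274 had an r of 0.551 (adjusted p = 0.0785 by permutation) and a rho of 0.329, and CD80 of 0.536 (adjusted p = 0.0879 by permutation) and 0.464. Without midkine 3-2 and 4-2 the r of CD274 was 0.0518 and that of CD80 was 0.199, so over both groups their relation to the T cell level rests on those libraries. Within midkine tumours the r of CD274 was 0.721 (exact permutation, n = 9, adjusted p = 0.0571), and 0.517 without those 2 libraries. For CD80 these values were 0.574 and 0.246. Within vehicle tumours the r was -0.281 for CD274 and 0.233 for CD80 (n = 6).

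The few genes whose levels ordered the 15 libraries most like each checkpoint gene were also noted, by Spearman rho and with no test. For LAG3 they were the T cell receptor chains CD3D (0.971) and CD3E (0.950) with TBC1D10C (0.968) between them. For CD86 they were the leukocyte genes SPN (0.961), SLA (0.954) and PTPRC (0.946), and for ICOS they were CALHM6 (0.946), SELPLG (0.939) and NINJ1 (0.936). FOXP3 had FGL2 (0.900), C1S (0.896) and TRAF1 (0.893). CD274 had CD82 (0.918), TRRAP (0.911) and ATP13A1 (0.907), and CD80 had SART3 (0.843), CA13 (0.843) and IL12RB1 (0.814).

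Markers of antigen-presenting cells were set beside the ligands, since macrophages, dendritic cells and B cells carry CD80 and CD86. The mean log2 CPM of the 14 macrophage genes that passed the filter, of 15 looked at, was 4.57 to 6.75 in midkine and 4.15 to 5.57 in vehicle tumours. CD68 and CD163, which define the type, had reads in every library. None of the 15 macrophage, 10 dendritic cell and 8 B cell markers with a row was at 0 in all libraries. For 7 dendritic cell genes of 11 the mean was 1.86 to 5.42 in midkine and 1.94 to 3.28 in vehicle tumours, and for the 2 B cell genes that passed, CD22 and FCRLA of 10, it was 0.79 to 6.93 in midkine and -0.17 to 1.58 in vehicle tumours. With the macrophage level in the model in place of the T cell level, LAG3 had a slope of 1.47 (SE 0.38, adjusted p = 0.0668 by edgeR) and CD86 of 1.06 (SE 0.37, adjusted p = 0.283). No checkpoint gene passed, while 1.78% of genes rose and 0.00858% fell with that level. CD274 had a slope of 0.03 (SE 0.68) and CD80 of 0.13 (SE 0.56). With the T cell level, 7 of 14 macrophage, 3 of 7 dendritic cell and 2 of 2 B cell genes rose, as given above. The part of these cells in the levels of the ligands was not tested.

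Midkine 3-2 and midkine 4-2, the libraries richest in these genes, did not hold them in the same proportions. Over all genes 13.5% were more than 2-fold higher in midkine 3-2 and 21.1% more than 2-fold higher in midkine 4-2, with 1 library each and no test. Midkine 3-2 had 4.73 times the CPM of midkine 4-2 for CD274, 3.81 times for CTLA4, 3.68 times for CD80 and 2.04 times for ICOS. FOXP3 and CD86 were level between them, at ratios of 1.05 and 0.988, and LAG3 (0.400) and PDCD1LG2 (0.314) were lower in midkine 3-2. The general T cell and leukocyte genes were on that side as well, with CD3E at 0.449, PTPRC at 0.343, CD8A at 0.282 and CD4 at 0.240. Of the 14 T cell genes 12 were more than 2-fold higher in midkine 4-2 and none in midkine 3-2.

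**Figure D4:**
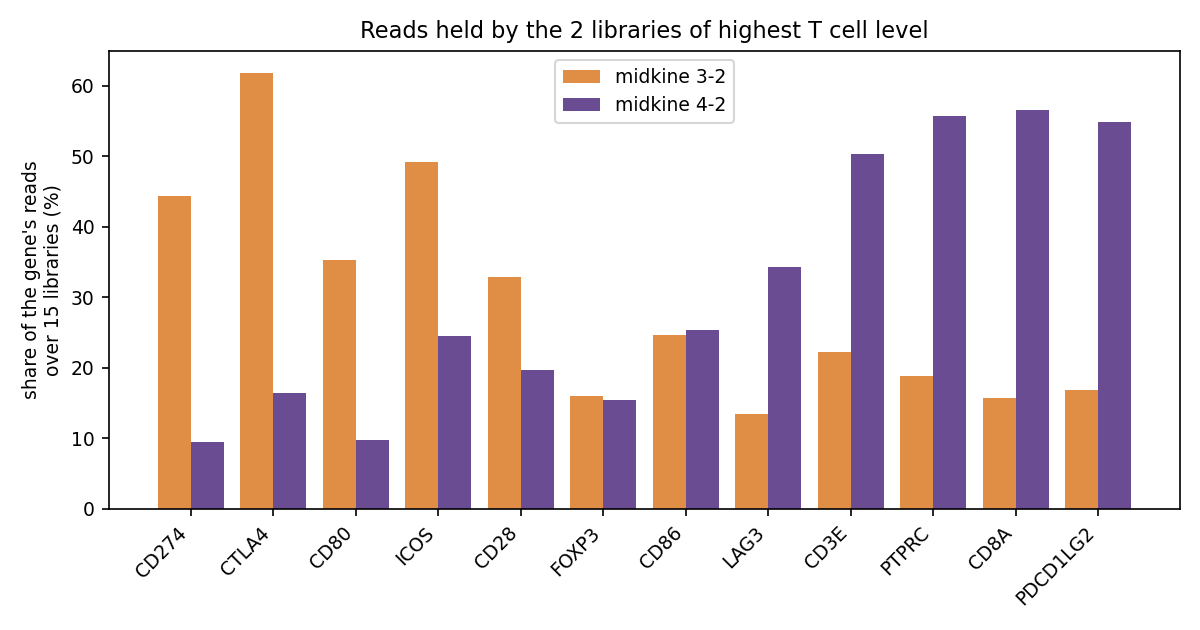
Share (%) of each gene's reads over 15 libraries that midkine 3-2 (orange) and midkine 4-2 (purple) held, for the 8 genes with reads and for CD28, CD3E, PTPRC and CD8A. Midkine 3-2 held 61.9% of CTLA4 and 44.3% of CD274 reads, and midkine 4-2 held 54.8% of PDCD1LG2 and 56.5% of CD8A reads.

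Genes that act with FOXP3 in regulatory T cells were read from a list of 10. Of these, 7 passed the filter, 6 had a log2 fold change above 0 and 0 were called between midkine and vehicle tumours, with a median of 1.24 (0.04 over all genes, 55.7% of which were above 0) that was -0.13 within the libraries with MYH4 reads. TNFRSF18 (GITR) averaged 11.1 ± 13.6 CPM in midkine tumours (SD, n = 9) and 1.83 ± 0.89 CPM in vehicle tumours (SD, n = 6). IL2RA, a chain of the interleukin 2 receptor, averaged 8.24 ± 9.46 CPM in midkine tumours and 1.84 ± 1.07 CPM in vehicle tumours. LRRC32, which holds latent TGF-beta on the cell surface, had 153 CPM in midkine 3-2 and 45.8 CPM in midkine 4-2. IKZF2, the gene with a log2 fold change below 0 (-0.12), averaged 2.43 ± 1.73 CPM in midkine tumours and 2.66 ± 1.87 CPM in vehicle tumours. With the T cell level 4 of the 7 rose, against 5.78% of all genes: IL2RA, TNFRSF18, TNFRSF4 and TNFRSF1B, with slopes of 0.82, 0.88, 0.60 and 0.62. IKZF2, LRRC32 and TNFRSF9 did not pass, with slopes of 0.34, 0.38 and 0.41 (adjusted p = 0.191, 0.107 and 0.0910 by edgeR). Slope counts of this list and of those below include midkine 3-2 and 4-2. Without these libraries 0.712% of all genes rose, and the lists were not counted again.

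Other checkpoint and costimulation genes, 24 of 33 after the filter, gave 21 log2 fold changes above 0 (55.7% over all genes), a median of 0.64 and 0 calls between midkine and vehicle tumours. In the libraries with MYH4 reads the median was 0.07. The largest values were those of TNFRSF14 (HVEM, log2 fold change 3.25), the costimulatory receptor CD27 (3.15) and TNFRSF18 (2.60), none past the threshold. With the T cell level 8 of 24 rose (5.78% over all genes), and they were TNFRSF14, CD27, CD96, TNFRSF18, TNFRSF4, CD40, CD48 and CD47. PVR, the ligand of TIGIT, reached 288 CPM in midkine 3-2 and 23.5 CPM in midkine 4-2, and its slope of 0.53 did not pass (adjusted p = 0.0948 by edgeR). CD200, an inhibitory ligand, was on the other side with a log2 fold change of -0.70 (SE 0.32, adjusted p = 0.488 by edgeR).

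Of 15 genes for factors of T cell activation and exhaustion, 13 passed the filter. All but BATF had a log2 fold change above 0, against 55.7% of all genes, the median was 1.35 and 0 were called. Within the libraries with MYH4 reads the median was 0.22. With the T cell level 8 of 13 rose, against 5.78% of all genes. IRF4, a factor induced by the T cell receptor, had 14.9 ± 23.8 CPM in midkine (SD, n = 9) and 1.54 ± 0.48 CPM in vehicle tumours (SD, n = 6), and its slope was 1.11 (SE 0.13, adjusted p = 6.63e-05 by edgeR). TOX, known from exhausted T cells, had a slope of 0.34 (SE 0.09, adjusted p = 0.0288). NR4A3, an early response factor of activated T cells, reached 108 CPM in midkine 3-2 and 9.50 CPM in midkine 4-2, whereas the chemokine gene CXCL13 had 10.4 CPM in midkine 3-2 and 97.7 CPM in midkine 4-2.

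Cytotoxic and natural killer cell genes, 7 of 12 after the filter, had 6 log2 fold changes above 0 (55.7% over all genes), a median of 1.53 and 0 calls between midkine and vehicle tumours. The median was -0.0052 in the libraries with MYH4 reads. PRF1, the pore-forming protein of killer cells, had a slope on the T cell level of 0.87 (SE 0.10, adjusted p = 5.37e-05 by edgeR), and 5 of the 7 rose with that level, as did 5.78% of all genes.

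The interferon gamma pathway, which can induce CD274, was read from 18 genes. IFNG itself had 18 reads in all libraries together and did not pass the filter. Of the 16 genes that passed, 12 had a log2 fold change above 0 (55.7% over all genes), the median was 0.39 and 0 were called. In the libraries with MYH4 reads the median was -0.09. With the T cell level 8 of the 16 rose, against 5.78% of all genes. CIITA, the activator of class II genes, had 9.65 CPM in midkine 3-2 and 205 CPM in midkine 4-2, opposite to CD274. The chemokine gene CXCL10 had 55.4 CPM in midkine 3-2 and 11.8 CPM in midkine 4-2, and the receptor gene IFNGR1 had 318 and 302 CPM there.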

How the data were processed

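The table that the authors deposited holds raw counts of reads per gene symbol for 15 libraries. Per the labels' protocols, libraries were made from 3000 ng of RNA after poly(A) selection and read from both ends over 150 bp. The submitters' processing notes name rn6, with the aligner's version, annotation and strand setting not given in the sources used here.

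The tests used edgeR 4.0.16 in R 4.3.3 with its expression filter by group, trimmed mean of M-values scaling, the quasi-likelihood F test across all genes, Benjamini-Hochberg adjustment and a threshold of 0.05. CTLA4 and PDCD1LG2 were read from the same fit with no filter. The T cell level is the mean log2 CPM (prior count 2) of 14 T cell genes, among them CD3D, CD3E, CD3G, CD247, CD2, CD5, LCK, CD4 and CD8A. The macrophage fit, the test of slopes against 1 and the fits by library totals alone or without midkine 1 among libraries with MYH4 reads were added after the data had been seen. Correlations used 100000 permutations, or all of them below 10 libraries. Alternatives used DESeq2 1.42.0 and limma 3.58.1. Scripts were tested on simulated data.

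The genes and lists were chosen with earlier results of these data known. Named by rule were these genes, up to 3 genes of smallest p per list, preset markers, and the 3 genes of highest Spearman rho for each. TNFRSF4, TNFRSF9, TNFRSF1B, IKZF2, CD96, CD40, CD48, CD47, PVR, CD200, BATF, TOX, NR4A3 and IFNGR1 fall outside that rule. They were named after their values were seen. Every pair of libraries within a group differed by more than sampling noise, with a chi-square of at least 19.9 per degree of freedom.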

Additional observations from a re-analysis of the deposited data

Results flagged for a closer look

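Of 18 sets of libraries looked at, 7 held 1 library far from the others of its group, by the gap to the next library over the range. The rule marks about 1 in 20 by chance for normal, independent values. CPM was skewed and the same libraries recur, so the 7 cannot be set against chance. The T cell level, the only item on a log scale, had no such library in either group. In midkine tumours midkine 3-2 stood apart for ICOS (74.5 CPM, the next library 36.6), CTLA4 (14.7, the next 3.85), CD274 (36.4, the next 7.70) and CD80 (12.8, the next 3.49). Midkine 4-2 stood apart for PDCD1LG2 (8.18 CPM, the next 2.56) and LAG3 (31.8, the next 15.9). Among vehicle tumours vehicle 6 stood apart for CTLA4, at 0.655 CPM against 0.141 in the next library, which rests on 5 reads against 1.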

How the results depend on the processing

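Of the recomputed log2 fold changes of the 8 genes with reads, 192 kept their direction and their side of the threshold, 11 turned and 1, ICOS with DESeq2, passed. DESeq2 called 92 genes between midkine and vehicle tumours where edgeR and limma-voom called 0. CD274 turned to -0.485 with DESeq2, to -0.0556 with limma-voom, to -1.04 in the libraries with MYH4 reads and to -0.841 without midkine 3-2 and 4-2. With 1 library left out it ran from -0.503 to 0.947. In the libraries with MYH4 reads LAG3 turned to -0.124, CD80 to -0.145 and CD86 to -0.312, and with midkine 1 left out of those CD274 was -0.859 and CD86 -0.101. CD80 turned to -0.0567 without midkine 3-2 and 4-2. The slopes of FOXP3 (-0.0201) and CD274 (-0.223) turned in the libraries with MYH4 reads. Genes called for the T cell slope numbered 836, and 470 with the replicate block, 199 with title numbers summed, 0 in the libraries with MYH4 reads, 83 without midkine 3-2 and 4-2, and 429 (without midkine 4-2) to 881 (without midkine 5) with 1 library left out. Among single slopes 157 kept their side, 31 no longer passed and 2 turned. The cause was not tested, though settings that leave out or sum libraries also hold fewer of them. Title numbers shared by both groups did not pair the libraries (r from -0.236 to 0.139). With them as a block no gene was called between groups and CD274 no longer passed for its slope (0.672, adjusted p = 0.0744 by edgeR). A count of 0, found for PDCD1 in all libraries and for CTLA4 and PDCD1LG2 in some, allows 0.351 to 0.714 CPM. For PDCD1 that applies only if the annotation used could collect its reads.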
